A study of Mus musculus with 6 samples.

Results

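Neural adhesion molecules of the immunoglobulin superfamily were examined in N2A cells, a mouse neuroblastoma line, transfected with a hairpin against Pbcas4, the transcribed mouse pseudogene that corresponds to human BCAS4. The genes were chosen by name, as well-known members of the family, and with earlier results of these data known: Ncam1, Ncam2, L1cam, Chl1, Nrcam, Nfasc, Cntn1, Cntn2, Cadm1 and Alcam. All 10 had a probe annotated with exactly 1 symbol, and they stand among 19938 such genes on 35556 probes. Each had 1 such probe, so no choice between probes was needed.

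Knockdown cells had been transiently transfected with a short hairpin (shRNA) construct against Pbcas4 (3 arrays), and the control cells with a construct holding a scramble hairpin (3 arrays). Both came from the same line and differed only in the construct, each hairpin being a single design expressed from a U6 promoter. Cells were harvested 72 h after transfection, and their RNA was hybridized to Affymetrix Mouse Gene 1.0 ST arrays. Values are the authors' normalized expression on the log2 scale, where a difference of 1 is a doubling. The probe annotation does not name Pbcas4, and its level was not analysed here. The paper reports, by quantitative PCR, a reproducible but partial decrease of Pbcas4 with this hairpin in N2A cells. The hairpins define the 2 groups, so the first arm of each is shown as the forward oligo reads, 5′ to 3′. This arm pairs with the second arm across the loop, and has no capitals because no base is singled out. The paper describes the control as chosen after random permutation of nucleotides. The Pbcas4 arm has 18 bases and the scramble arm 17, so these arms are not rearrangements of each other.

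sh-pbcas4: gatccctgttgtgacatg
sh-scramble control: agatactcgatcccgcg

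Immunoglobulin cell adhesion molecules are surface proteins with immunoglobulin domains outside the cell that bind copies of themselves, or each other, on neighbouring cells and axons. They hold neurites in bundles, steer growing axons and set up specialised membrane regions such as the node of Ranvier, and several also signal through kinases or anchor to the ankyrin and spectrin cytoskeleton. Neuroblastoma cells, which derive from the sympathetic lineage, are known to carry NCAM and L1 on their surface.

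Scramble replicate 1 stood apart from the other controls. Over the whole set of probes (not independent of each other) it correlated at 0.990 to 0.993 with the shRNA arrays and at 0.987 to 0.988 with scramble replicates 2 and 3. It was the lowest of the 3 control arrays for 10 of the 10 adhesion genes, and for 46.5% of all genes. Among the shRNA arrays, replicate 1 correlated at 0.989 and 0.993 with replicates 2 and 3, and at 0.992 with scramble replicate 1. Its 0.984 with scramble replicate 3 was the lowest of all pairs. Results are therefore also given without scramble replicate 1, and for Ncam1, L1cam, Cadm1, Nrcam and Nfasc without shRNA replicate 1. Leaving out the lowest control array can only move a difference downward. The cell type was checked with marker lists against a floor of 7.19, the 95th percentile of 1035 olfactory receptor probes, which serves only as a guide because probes differ in how strongly they bind. All 9 measured neuroblastoma markers lay over the floor, against 2 of 3 glial, 4 of 5 fibroblast and 1 of 5 macrophage markers.

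Of the family 6 genes were over the floor, 5 of them with clear signal, and the others lay below it. Ncam1, L1cam, Cadm1, Nrcam and Nfasc averaged 5.61, 5.07, 4.74, 1.80 and 1.29 log2 units over it. Cntn2 was only 0.14 over it. Relative to the floor Alcam was at -0.05, Cntn1 at -0.95, Chl1 at -1.49 and Ncam2 at -1.97, so that differences of these 4 genes cannot be read as differences of expression.

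Each of the 5 genes with clear signal averaged lower with Pbcas4 shRNA than with scramble, while Cntn2, just over the floor, averaged higher (log2 difference 0.11). Ncam1 and Cadm1 were lower in every shRNA array than in any scramble array, L1cam had the widest difference of means, and Nrcam and Nfasc overlapped more. None of the 10 genes passed limma's test, which asked for a Benjamini-Hochberg adjusted p under 0.05 over all probes and a log2 difference over 0.5, and 0% of all genes passed it. The paper, which limited the probes it considered, reports differentially expressed genes in this comparison. At an unadjusted p under 0.05, 3 of 10 were lower (Ncam1, Cadm1 and L1cam) and 0 were higher, against 5.46% lower and 6.22% higher among all genes. Among genes over the floor the background was 7.56% lower and 8.61% higher, against 3 and 0 of 6. Because the genes were chosen with earlier results of these data known, these shares are description and not a test. The median log2 difference was -0.10 over the 10 genes and -0.35 over the 6 over the floor, against 0.0031 over all genes and 0.0050 over all genes over the floor. Because RNA came from whole cultures, fewer cells that use a gene and less RNA per cell cannot be told apart.

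**Figure D1:**
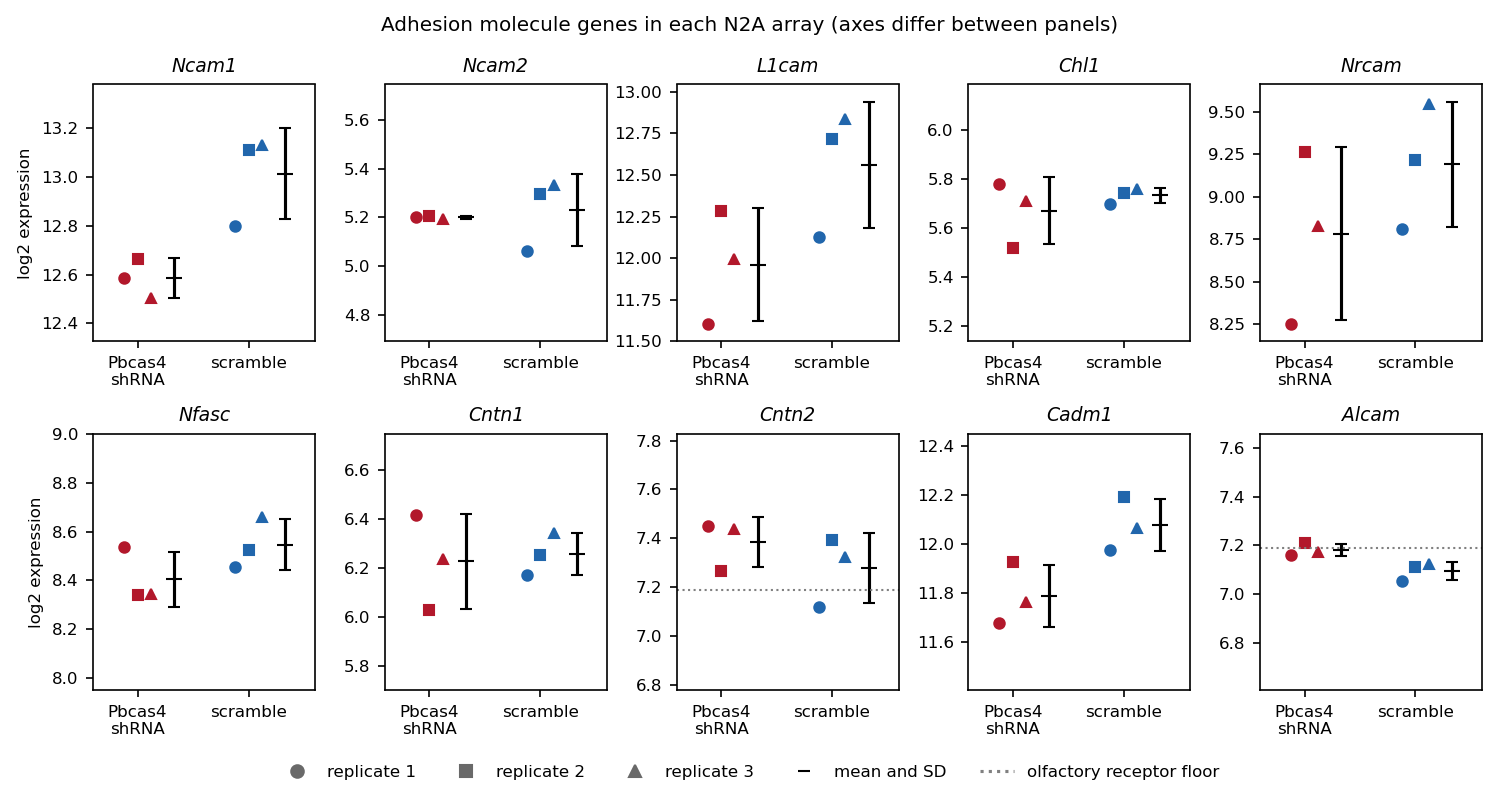
Normalized log2 expression (vertical axis, different in each panel) of the 10 adhesion molecule genes in 3 Pbcas4 shRNA arrays (left, red) and 3 scramble arrays (right, blue). Each symbol is an array, with the group mean and SD (n = 3) as bars, and the dotted line is the floor of 7.19 where it falls in the panel. Ncam1 and Cadm1 show a gap between the groups with shRNA lower, Alcam shows a smaller one of 0.037 with shRNA higher, and scramble replicate 1 is the lowest control array in each panel.

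The NCAM pair comes first by role. Ncam1 encodes the founding member of the family, a homophilic adhesion protein that carries polysialic acid in growing neurons and signals through the FGF receptor and the kinase Fyn. It was at 12.59, 12.67 and 12.51 in shRNA replicates 1, 2 and 3, against 12.80, 13.11 and 13.13 in scramble replicates 1, 2 and 3. All shRNA arrays lay below all scramble arrays, with a gap of 0.13, and scramble replicate 1 was the nearest control. The mean was 12.59 ± 0.08 with Pbcas4 shRNA, against 13.01 ± 0.19 with scramble (SD, n = 3 each). The log2 difference was -0.43 (standard error 0.12, 95% interval -0.71 to -0.15), or 0.744 of the control level on the linear scale (95% interval 0.612 to 0.904). Its unadjusted p was 0.0092, and its adjusted p was 0.395 from limma. By an exact permutation test, two-sided, p was 0.1, the smallest that 3 arrays against 3 allow. The shRNA array minus the scramble array of the same replicate number gave -0.21, -0.44 and -0.63 for replicates 1, 2 and 3. Without scramble replicate 1 the log2 difference was -0.53 (adjusted p = 0.0705 from limma, with a range of 0.0175 to 0.866 over all alternatives). It was -0.43 without shRNA replicate 1.

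Ncam2, a paralog best known from olfactory axons, was below the floor in every array. Its values were 5.20, 5.21 and 5.19 with Pbcas4 shRNA, against 5.06, 5.29 and 5.33 with scramble. The shRNA values lay between the lowest and the middle control value, and the log2 difference was -0.03 (95% interval -0.27 to 0.21).

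The 3 genes whose pattern over the 6 arrays was most like that of Ncam1 were Aldh6a1, Sv2a, which encodes a synaptic vesicle glycoprotein, and Atcay, which encodes the neuronal protein caytaxin, with Pearson's r of 0.997, 0.994 and 0.994 across arrays. They were picked as the highest of 13629 genes over the floor, which fixes their direction between the groups. Each r rests on only 6 arrays, and 221 of those genes exceeded an r of 0.95. As description only, Sv2a was at 10.02, 10.26 and 9.98 with Pbcas4 shRNA, against 10.45, 10.88 and 10.98 with scramble.

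The L1 family consists of L1cam, Chl1, Nrcam and Nfasc, transmembrane proteins whose cytoplasmic tails bind ankyrins. L1cam promotes neurite outgrowth and axon bundling. It was at 11.60, 12.29 and 11.99 with Pbcas4 shRNA, against 12.13, 12.72 and 12.84 with scramble. The groups overlapped, because scramble replicate 1 lay below shRNA replicate 2, although within each replicate number the shRNA array was the lower one (differences of -0.52, -0.43 and -0.85). The mean was 11.96 ± 0.34 with Pbcas4 shRNA, against 12.56 ± 0.38 with scramble (SD, n = 3 each). The log2 difference of -0.60 (standard error 0.24, 95% interval -1.18 to -0.02) was the widest of the 10 genes, at an unadjusted p of 0.0437 and an adjusted p of 0.483 from limma. With the replicate number as a block its adjusted p was 0.259 from limma (range over all alternatives 0.0277 to 0.911). Leaving out 1 array at a time gave differences of -0.82 to -0.42, with -0.82 without scramble replicate 1 and -0.42 without shRNA replicate 1.

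Nrcam, which takes part in clustering sodium channels at nodes of Ranvier, had a similar order of arrays around a wider spread. It was at 8.25, 9.27 and 8.83 with Pbcas4 shRNA, against 8.81, 9.22 and 9.55 with scramble. As for L1cam, shRNA replicate 1 was the lowest and scramble replicate 3 the highest of the 6 arrays, but shRNA replicate 2 exceeded its control of the same number. The log2 difference was -0.41 (standard error 0.29, 95% interval -1.11 to 0.29, adjusted p = 0.725 from limma), which is within the spread between arrays. It was -0.14 without shRNA replicate 1, -0.23 without scramble replicate 3, -0.60 without scramble replicate 1 and -0.65 without shRNA replicate 2.

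Nfasc encodes neurofascin, which organises the axon initial segment and the node. Its values were 8.53, 8.34 and 8.34 with Pbcas4 shRNA, against 8.46, 8.53 and 8.66 with scramble. Here shRNA replicate 1 was at the level of the controls and shRNA replicates 2 and 3 were below all of them. The log2 difference was -0.14 (95% interval -0.38 to 0.10, adjusted p = 0.724 from limma). It was -0.19 without scramble replicate 1, -0.21 without shRNA replicate 1 and -0.086 without scramble replicate 3.

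Chl1, the close homolog of L1 and a substrate of the protease BACE1 in neurons, stayed below the floor. It was at 5.78, 5.52 and 5.71 with Pbcas4 shRNA, against 5.70, 5.74 and 5.76 with scramble, a log2 difference of -0.06 (95% interval -0.30 to 0.17).

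**Figure D2:**
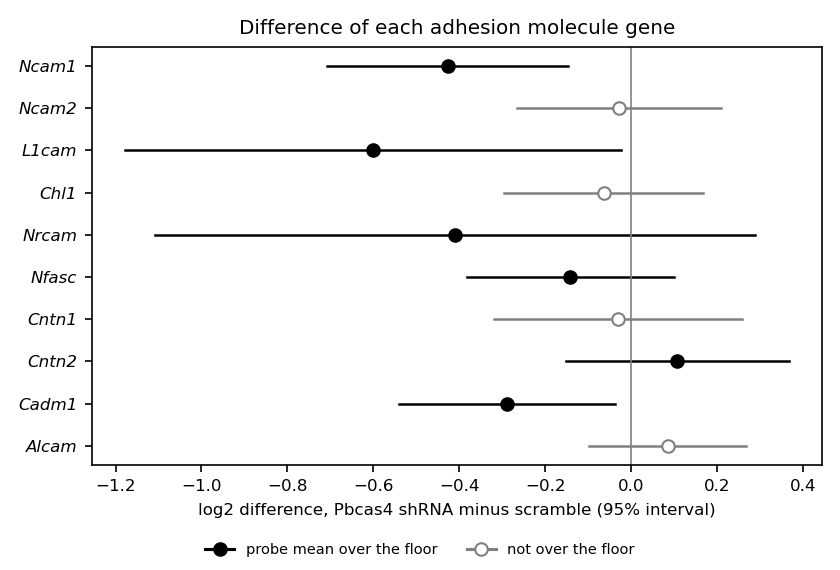
Log2 difference, Pbcas4 shRNA minus scramble (horizontal axis), for each of the 10 adhesion molecule genes, with its 95% interval from limma. Filled points are genes whose probe mean is over the floor. The intervals of Ncam1, L1cam and Cadm1 lie below 0 and the others hold 0; these intervals are not adjusted for the number of genes.

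The part of the promoter window that lies before the gene is shown for L1cam and Nrcam because these family members shared the lowest and the highest array. It was taken from RefSeq's mouse annotation (build GRCm38.p6), where 8 of the 10 genes had a promoter window of 300 bases. Capitals mark the GC box GGGCGG, the element bound by Sp transcription factors, searched for on both strands (CCGCCC on the other), with overlapping matches counted. The L1cam stretch is chrX:73880839-73881084 on the minus strand, and the Nrcam stretch is chr12:44328635-44328785 on the plus strand.

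L1cam: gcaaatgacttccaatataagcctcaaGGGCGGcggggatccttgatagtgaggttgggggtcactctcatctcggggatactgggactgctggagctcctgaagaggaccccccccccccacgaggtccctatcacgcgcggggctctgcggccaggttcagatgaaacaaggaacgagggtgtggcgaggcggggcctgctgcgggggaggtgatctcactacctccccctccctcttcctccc
Nrcam: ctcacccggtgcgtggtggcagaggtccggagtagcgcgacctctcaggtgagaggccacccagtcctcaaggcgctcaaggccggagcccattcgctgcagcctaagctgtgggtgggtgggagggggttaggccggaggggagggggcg

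The L1cam stretch held 1 GC box, and the window it was taken from held 2. The Nrcam window also held 2, neither of them complete in the stretch shown. A GC box was found in at least 1 window of 5 of the 8 genes, and in 35.7% of all 32851 windows of this length. These shares are unlike, the former counting genes and the latter windows, because Nfasc, Cntn1 and L1cam had more than 1 window. The other L1cam window, which overlaps the one used, held 1 box. The windows of the 2 stretches shown were rich in CpG, with 22 such pairs for L1cam and 37 for Nrcam. The median over all windows was 7. This was not particular to these 2 genes: the windows of Ncam2 and Alcam, whose probe means were not over the floor, held 41 and 25. These matches are letters in a window and say nothing of binding in N2A cells.

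Contactins are anchored to the membrane by a lipid and act with partners on the same or the facing cell. Neither contactin in the family gave clear signal. Cntn1, known from the junctions beside the node, was at 6.42, 6.03 and 6.24 with Pbcas4 shRNA, against 6.17, 6.25 and 6.34 with scramble, all below the floor. Cntn2, also called TAG-1, was at 7.45, 7.27 and 7.44 with Pbcas4 shRNA, against 7.12, 7.39 and 7.32 with scramble. Its groups overlapped around the floor, with a log2 difference of 0.11 (95% interval -0.15 to 0.37), and of 0.03 without scramble replicate 1.

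Cadm1 encodes SynCAM1, an adhesion protein that can induce synapse formation and that binds 4.1 proteins inside the cell. It was at 11.68, 11.93 and 11.76 with Pbcas4 shRNA, against 11.98, 12.19 and 12.07 with scramble. The groups did not overlap, by a gap of 0.05. Its difference was also the most even between arrays with the same number, at -0.30, -0.27 and -0.30 for replicates 1, 2 and 3. The mean was 11.79 ± 0.13 with Pbcas4 shRNA, against 12.08 ± 0.11 with scramble (SD, n = 3 each). The log2 difference was -0.29 (standard error 0.10, 95% interval -0.54 to -0.04), or 0.818 of the control level (95% interval 0.688 to 0.974). Its adjusted p was 0.453 from limma, and that of an exact permutation test, two-sided, was 0.1. Without scramble replicate 1 the difference was -0.34, and without shRNA replicate 1 it was -0.23.

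Alcam, which binds itself and the lymphocyte receptor CD6, was at 7.16, 7.21 and 7.18 with Pbcas4 shRNA, against 7.06, 7.11 and 7.12 with scramble. The groups did not overlap, with the shRNA arrays higher, but all 6 values lay close to the floor. The log2 difference was 0.09 (95% interval -0.10 to 0.27, adjusted p = 0.814 from limma). In all, 2 of the 10 genes had groups that did not overlap with shRNA lower and 1 with shRNA higher, against 7.63% and 9.13% of all genes. Over the floor it was 2 and 0 of 6, against 1307 and 1550 of 13630 genes.

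How many of these genes had an unadjusted p under 0.05 changed when single arrays were left out. Leaving out an array also leaves fewer arrays to test. Ncam1 kept such a p whichever array was left out, at unadjusted limma values of 0.0015 to 0.0376. L1cam and Cadm1 lost it without shRNA replicate 1 (0.133 for L1cam and 0.0854 for Cadm1) or shRNA replicate 3 (0.0831 and 0.0869). They also lost it without scramble replicate 2 (0.117 and 0.104) or scramble replicate 3 (0.131 and 0.0642). The count was then 1 of 10. The loss did not always go with a smaller difference: L1cam was at -0.62 without shRNA replicate 3, and Cadm1 at -0.30 without scramble replicate 3. With array weights, by which limma trusts some arrays more than others, Ncam1 (log2 difference -0.56, adjusted p = 0.0175) and L1cam (-0.70, adjusted p = 0.0277) passed both criteria, against 3.18% of all genes passing as lower in that fit. Of the 11 genes named from the other lists below, Dscaml1 (-0.65, adjusted p = 0.0204), Cntn6 (-0.85, adjusted p = 0.0249) and Gfra1 (-0.84, adjusted p = 0.0232) also passed both criteria there, and only there did any gene of these 11 reach an adjusted p under 0.05. That fit weighted shRNA replicate 3 at 5.32 and scramble replicate 2 at 2.39, and the other arrays at 0.353 to 0.875.

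Markers of the cell type also averaged lower. The mean of the 9 measured neuroblastoma markers, among them Phox2a, Hand2, Dbh and Tubb3, was 11.49 to 11.63 in the shRNA arrays, below 11.92 to 12.18 in the scramble arrays, and 8 of the 9 genes had a lower mean (median log2 difference -0.35). At an unadjusted limma p under 0.05, 4 of the 9 were lower and 0 higher, against 5.46% and 6.22% of all genes. All 9 lay over the floor, where the shares were 7.56% and 8.61%. Without overlap between the groups 3 of them were lower, against 7.63% of all genes and 1307 of 13630 genes over the floor. The glial markers averaged 7.27 to 7.55 in the shRNA arrays and 7.38 to 7.51 in the scramble arrays, and the macrophage markers averaged 6.44 to 6.63 with Pbcas4 shRNA and 6.49 to 6.60 with scramble. The fibroblast markers averaged 7.52 to 7.71 with Pbcas4 shRNA and 7.35 to 7.64 with scramble, and all 5 of them had a higher mean (median log2 difference 0.04, the widest 0.55). Of the 5, 1 was higher at an unadjusted limma p under 0.05 and 1 without overlap between the groups, against 6.22% and 9.13% of all genes. Among all genes over the floor, where 4 of the 5 lay, these were 8.61% and 1550 of 13630. Arrays carry a background signal, so no marker is at 0. Their part in the differences of the adhesion genes was not tested.

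Other adhesion proteins of the superfamily did not share one direction. Of 25 written, 24 were measured, and 16 had a lower and 8 a higher mean in the shRNA arrays (median log2 difference -0.08). None passed over all probes. At an unadjusted p under 0.05, 4 of 24 were lower and 2 were higher, against 5.46% and 6.22% of all genes. Over the floor 3 of 18 were lower and 2 higher, against 7.56% and 8.61% of genes there. Dscaml1, a homophilic protein of retinal and brain neurons, was at 9.51, 9.95 and 9.61 with Pbcas4 shRNA, against 10.17, 10.20 and 10.54 with scramble (log2 difference -0.62, standard error 0.16). Nectin1, an adhesion protein of adherens junctions, was at 10.31, 10.62 and 10.51 with Pbcas4 shRNA, against 10.93, 10.96 and 10.78 with scramble (log2 difference -0.41, standard error 0.11). Both were lower in each shRNA array than in any scramble array.

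Nectin3, the preferred partner of Nectin1 on the facing cell, had a higher mean. It was at 10.38, 10.82 and 10.65 with Pbcas4 shRNA, against 10.42, 10.28 and 10.03 with scramble, so that shRNA replicate 1 and scramble replicate 1 overlapped (log2 difference 0.37, standard error 0.15). Its unadjusted p from limma, 0.0463, was 0.0625 with the replicate block, 0.0506 with median centring and up to 0.142 with 1 array left out. Cadm4, a paralog of Cadm1 known from myelinating glia, was at 9.05, 9.08 and 8.99 with Pbcas4 shRNA, against 9.34, 9.47 and 9.26 with scramble (log2 difference -0.31, standard error 0.09).

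Among the contactins outside the family of 10, the only one over the floor was Cntn3, which was higher in every shRNA array. Its values were 9.62, 9.56 and 9.54 with Pbcas4 shRNA, against 9.31, 9.25 and 9.34 with scramble (log2 difference 0.28 with a standard error of 0.08, limma adjusted p = 0.401). Cntn6 was at 6.12, 6.67 and 6.40 with Pbcas4 shRNA, against 6.48, 7.27 and 7.52 with scramble. Its mean lay below the floor, with only scramble replicates 2 and 3 over it (log2 difference -0.70, standard error 0.28).

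**Figure D3:**
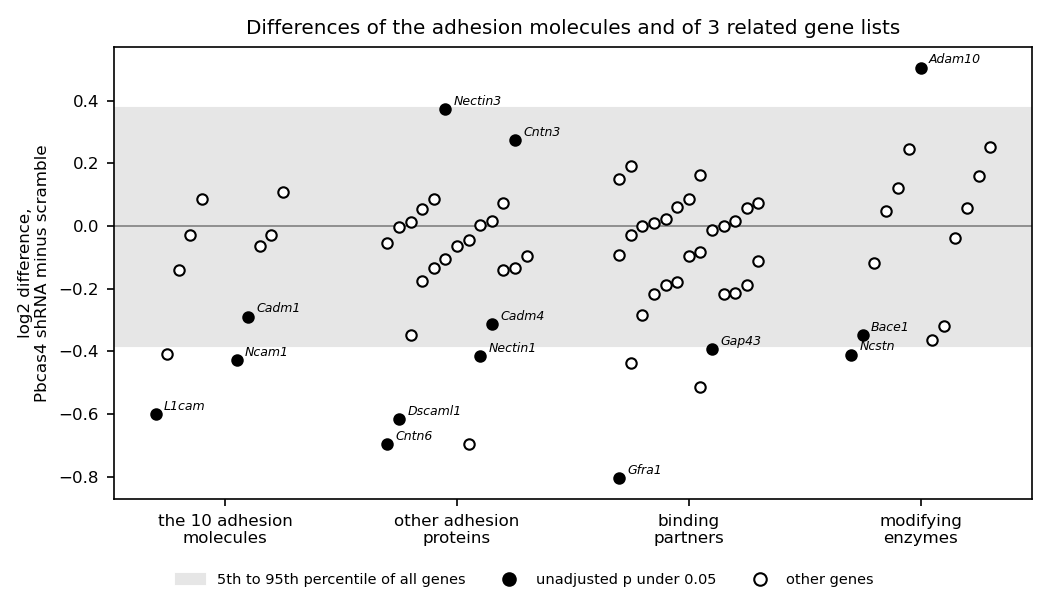
Log2 difference, Pbcas4 shRNA minus scramble (vertical axis), of the 10 adhesion molecule genes and of the measured genes of 3 lists: other adhesion proteins, binding partners and modifying enzymes. Filled points have an unadjusted p under 0.05 and are named, and the grey band runs from -0.38 to 0.38, the 5th to the 95th percentile of all genes. Among the named points Gfra1 lies lowest, at -0.81, and Adam10 highest, at 0.51.

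Among genes for proteins that bind the family, few stood out. Of 29 partner genes, 18 had a lower and 11 a higher mean (median log2 difference -0.08), with 2 lower and 0 higher at an unadjusted p under 0.05 and 0 called. Against 5.46% lower among all genes, 2 of 29 is near the background. Over the floor it was 2 of 24, against 7.56% of genes there. The 6 ankyrin and spectrin genes, which anchor the L1 family, had differences between -0.19 and 0.15 with a median of 0.06, and the 7 genes of 4.1 and membrane scaffold proteins, which bind Cadm1 and its relatives, had differences between -0.18 and 0.01.

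Gfra1, the GDNF receptor subunit with which NCAM can bind GDNF, had the widest difference of this list. It was at 9.69, 10.63 and 10.30 with Pbcas4 shRNA, against 10.66, 11.15 and 11.22 with scramble, without overlap by a gap of 0.04 (log2 difference -0.81 with a standard error of 0.26, limma adjusted p = 0.431). Gap43, a growth cone protein that acts downstream of NCAM in neurite outgrowth, was at 11.84, 12.31 and 12.18 with Pbcas4 shRNA, against 12.28, 12.66 and 12.58 with scramble, with shRNA replicate 2 above scramble replicate 1. Its log2 difference was -0.39 (standard error 0.16), and -0.26 without shRNA replicate 1. Fgfr1 and Fyn, through which NCAM signals, had log2 differences of -0.28 and 0.16 and did not reach an unadjusted p under 0.05.

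Enzymes that modify or cleave the family differed among themselves. Of 14 written, 13 were measured, with 6 lower and 7 higher means and a median log2 difference of 0.05. At an unadjusted p under 0.05, 2 of 13 were lower and 1 was higher, against 5.46% and 6.22% of all genes, and 0 were called. Over the floor 2 of 12 were lower and 1 higher, against 7.56% and 8.61% of genes there. Adam10, a surface protease that sheds L1 and NCAM ectodomains, was at 11.33, 11.67 and 11.46 with Pbcas4 shRNA, against 10.99, 10.96 and 11.00 with scramble. Every shRNA array was higher, by a gap of 0.33, and the 3 control arrays, replicate 1 included, were nearly level. The log2 difference was 0.51 (standard error 0.11, 95% interval 0.25 to 0.76), with an unadjusted p of 0.0025 and an adjusted p of 0.348 from limma. It stayed between 0.41 and 0.58 whichever array was left out.

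Bace1, the protease that cleaves Chl1, was at 9.82, 10.22 and 10.28 with Pbcas4 shRNA, against 10.44, 10.43 and 10.50 with scramble, lower in every shRNA array. Its log2 difference was -0.35 (standard error 0.13), and -0.21 without shRNA replicate 1. Ncstn, which encodes nicastrin of the gamma-secretase complex that cuts the remaining membrane stubs, was at 11.12, 11.51 and 11.37 with Pbcas4 shRNA, against 11.51, 11.80 and 11.92 with scramble. The highest shRNA array and the lowest scramble array met at 11.51 (log2 difference -0.41, standard error 0.15). The 6 genes of polysialic acid synthesis, the sugar chain of NCAM, had differences between -0.12 and 0.25, and of its polymerases St8sia2 was at 7.36, 7.29 and 7.26 with Pbcas4 shRNA, against 7.17, 7.57 and 7.52 with scramble. St8sia4 was below the floor.

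**Figure D4:**
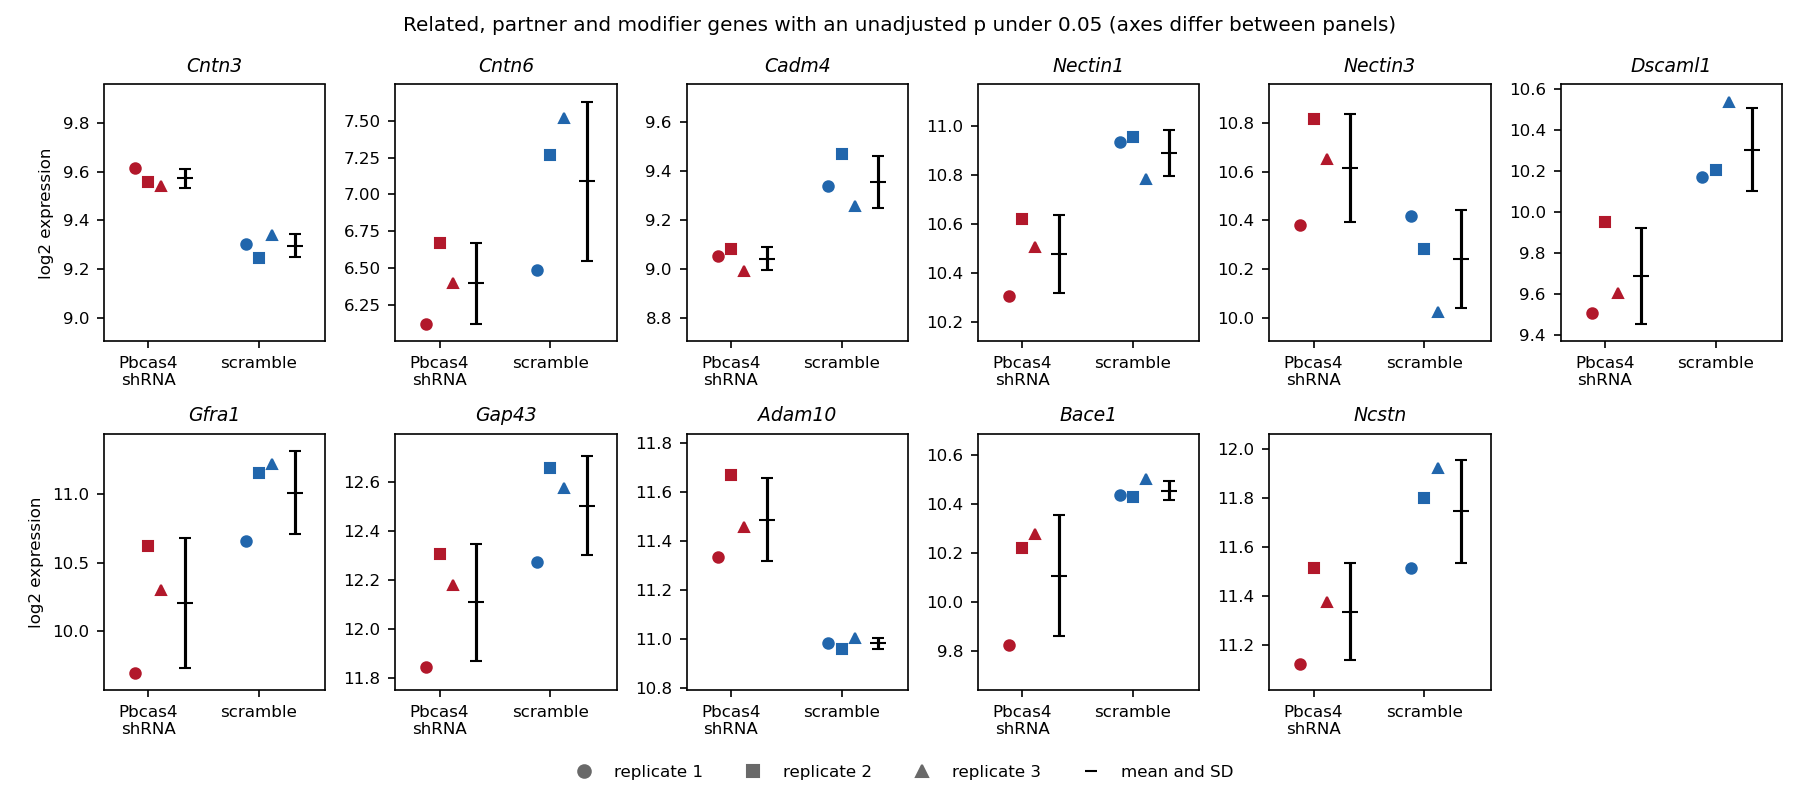
Normalized log2 expression (vertical axis, different in each panel) of the 11 genes of the other 3 lists with an unadjusted p under 0.05, in 3 Pbcas4 shRNA arrays (left, red) and 3 scramble arrays (right, blue). Each symbol is an array, with the group mean and SD (n = 3) as bars. Adam10, Cntn3 and Nectin3 have the higher mean in the shRNA arrays and the other 8 the lower one.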

How the data were processed

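The deposited table holds, per the file headers, 1 column for each of 6 Affymetrix Mouse Gene 1.0 ST arrays. The authors had summarized and normalized the values on the log2 scale, and the method is not given in the sources used here; they were used without further normalization. Of 35556 probes, 21789 carried 1 gene symbol, 1621 several and 12146 none, from GEO's platform annotation, and where a gene had more than 1 probe the brightest by mean was kept. No 2 arrays were identical. Whether replicates were separate cultures is stated only as transfection in triplicate, and each p measures the spread between these arrays, whose number limits the precision.

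The test was limma (version 3.58.1, R 4.3.3; lmFit, then eBayes, with 1 term for the construct, two-sided, Benjamini-Hochberg adjustment over all probes). The threshold takes its 2 values from the methods: 0.05 for the adjusted p and 0.5 for what they call variance between conditions, read here as a log2 difference. The methods considered only probes past the latter, whereas here the adjustment ran over all probes and the size was asked for in addition. The paper reports differentially expressed genes between these groups, and this fit did not reproduce those calls. The fit was run on simulated arrays with independent noise for each probe and no shift of a whole array. That run checked only the mean size of the changes put in, so it says nothing of the p-values here. Single genes were also given an exact permutation test. The adhesion genes and the lists of related, partner and modifier genes (78 symbols, 76 measured) were chosen with earlier results of these data known. All members were named, and of the other lists the genes with an unadjusted p under 0.05; Fgfr1, Fyn and the polysialyltransferases St8sia2 and St8sia4 were added after their values were seen. After removal of the group means, arrays with the same replicate number had correlations across probes of 0.291, 0.137 and 0.103 (replicates 1, 2 and 3), each over the preset 0.1. However, shRNA replicate 2 correlated more with scramble replicate 3 (0.199), and the labels do not say that the numbers pair the arrays. The number was left out of the main fit and fitted as a block among the alternatives. The others were quantile normalization, median centring, a trended and robust variance, array weights, a filter at the floor, averaging probes of 1 gene and leaving out each array in turn; leaving out both arrays numbered 1 was chosen after seeing the data.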

Additional observations from a re-analysis of the deposited data

How the results depend on the processing

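None of the 10 adhesion genes was called in the fit as reported, nor under any alternative except array weights (2) and the rule of an unadjusted p under 0.05 without a size criterion (3); leaving out single arrays gave 0 to 0. The count at an unadjusted p under 0.05 was 3; it was 1 with median centring (Ncam1), 5 with array weights and 1 to 3 when single arrays were left out. The median log2 difference of -0.10 was -0.35 with the filter at the floor, which leaves 6 genes, -0.21 without both arrays numbered 1, and -0.15 to -0.07 when single arrays were left out. Standard errors, intervals and p-values in the sections above leave out the replicate block unless it is named. With the replicate block the count stayed at 3 and the median at -0.10, and the block changed no call. It moved the unadjusted limma p in both directions, from 0.0437 to 0.0037 for L1cam and from 0.0092 to 0.0142 for Ncam1.

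Ncam1, L1cam, Cadm1, Nrcam and Nfasc kept their direction under every alternative run, as did Alcam except that the filter at the floor removed it. Among the named genes of the other lists, Bace1, Cntn6, Gap43, Gfra1, Ncstn and Nectin3 each lost an unadjusted limma p under 0.05 when some single array was left out. With median centring Bace1 (0.0678), Cntn6 (0.0598), Gap43 (0.0803), Ncstn (0.0576) and Nectin3 (0.0506) lost it too. So did Nectin3 with the replicate block (0.0625) and Cntn6 with quantile normalization (0.0659). Bace1 also lost it with array weights (0.0613) and without both arrays numbered 1 (0.0684). Leaving out single arrays turned the direction of genes below the floor, with log2 differences from -0.11 to 0.023 for Ncam2, from -0.12 to 0.012 for Chl1 and from -0.12 to 0.070 for Cntn1. Without both arrays numbered 1, Cntn2 had a difference of -0.0046. The cause was not tested. No depth can be given for arrays; signal near the floor limits Cntn2, Alcam, Cntn1, Chl1 and Ncam2.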
